A study of Homo sapiens with 6 samples.

Results

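Chromosome 19 carries the densest collection of zinc finger genes in the human genome, and 205 of them were expressed in the small cell lung cancer cells studied here. They were taken as the genes with a symbol of the form ZNF and a number, with or without 1 further letter, that lie on chromosome 19 and reach a mean of at least 1 count per 1000000 counts (CPM) over the 6 libraries. Of 263 chromosome 19 symbols of that form or with a pseudogene ending, 16 were pseudogenes and 42 lay below the threshold. The libraries held 60671 gene rows in all. The cells were NCI-H69, an established neuroendocrine small cell lung cancer line, labelled wild type in every library. In the 3 GNF5 libraries they had been treated for 48 h with GNF5, an allosteric inhibitor of the ABL kinases, at 20 µM by the label of each sample, although the protocol text gives the same figure in millimolar. In the 3 DMSO libraries they had received the vehicle. It is 1 cell line, and the labels do not give the replicates as separate cultures. The p-values below therefore reflect the spread among these libraries alone, and that spread may be technical.

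Most of these genes encode proteins with a KRAB box near the amino terminus and a row of C2H2 zinc fingers behind it. The fingers bind DNA, often inside transposable elements, and the KRAB box binds the corepressor TRIM28, which brings the histone methyltransferase SETDB1, HP1 proteins and histone deacetylases to the site. The family grew by tandem duplication, so related genes stand in blocks along the chromosome and resemble each other in sequence.

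The GNF5 libraries held 46148701 to 58771023 counts and the DMSO libraries 56467189 to 60697602. The member of the lowest level had 354 counts over the 6 libraries and the median member 5130. The 7 neuroendocrine markers summed to 6349 to 6508 CPM with GNF5 and to 4801 to 4966 CPM with DMSO, and none of them was at 0. The 5 fibroblast markers summed to 5.44 to 6.23 CPM with GNF5 and 3.52 to 4.04 CPM with DMSO, with 1 of them at 0. The 5 leukocyte markers summed to 0.170 to 0.573 CPM with GNF5 and 1.56 to 1.80 CPM with DMSO, with 1 at 0. The 4 lung epithelium markers summed to 0.647 to 1.03 CPM with GNF5 and 4.79 to 5.85 CPM with DMSO, with 1 at 0, and 2 of the 3 erythroid markers were at 0. Single genes made up most of 3 of these differences. FOXJ1 had 0.601 CPM with GNF5 and 4.81 CPM with DMSO, and PTPRC had 0.350 and 1.63 CPM. COL1A1 had 5.28 and 2.89 CPM, while the fibroblast markers PDGFRB, LUM and DCN had lower means with GNF5. The part of these marker genes in the results was not tested.

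More of the zinc finger genes rose than fell with GNF5, and the changes were small. In edgeR's quasi-likelihood test with adjustment over all 20734 tested genes, 89 of the 205 were higher with GNF5 (43.4%), 34 were lower (16.6%) and 82 were not called at an adjusted p under 0.05. Over all tested genes, 61.6% were called, 31.0% higher and 30.7% lower. The share of members called was 60.0%, close to that background. It was below the 71.5% of tested genes at 1 CPM or more, the level that members had to reach. The split between directions was 89 to 34 among the members and 6426 to 6356 among all tested genes. All 205 members entered the test, and only ZNF792 lay below 1 CPM in the mean of the DMSO libraries. In a bulk sample, fewer cells of a type and less RNA per cell cannot be told apart.

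The median log2 fold change of the members was 0.10, with quartiles at -0.09 and 0.36, against 0.01 for all tested genes. The median size of the change, whatever its sign, was 0.21 on the log2 scale for the members. It was 0.34 for all tested genes and 0.29 for those at 1 CPM or more. The values of the 3 GNF5 libraries did not overlap those of the 3 DMSO libraries in 134 members (65.4%). That compares with 65.9% of all tested genes and 74.6% of those at 1 CPM or more. At a change of at least 1.5-fold, 16 members were called higher and 2 lower, where 11.2% of all tested genes were called higher and 12.9% lower at that size. Of the 15476 tested genes at 1 CPM or more, 1623 were called higher and 1687 lower at that size. Summed over the members, the level was 4546 ± 114 CPM with GNF5 and 4101 ± 52.9 CPM with DMSO (SD, n = 3 each), a ratio of 1.11.

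The same direction was seen in zinc finger genes elsewhere. Of 224 genes chosen by the same rule on other chromosomes, 111 were higher and 45 lower, with a median of 0.15. Of 711 other protein-coding genes of chromosome 19 at the same minimum level, 246 were higher and 295 lower, with a median of -0.04. All 15476 tested genes at 1 CPM or more were split into 36.9% higher and 34.6% lower, with a median of 0.02. Among 14 tested chromosome 19 genes of the same C2H2 class but with other names, 7 were higher and 3 lower. ZFP14, ZFP82 and ZFP28, which lie among the zinc finger blocks, had log2 fold changes of 0.47, 0.38 and 0.26 and were called higher, and ZSCAN5A (-0.42) was called lower.

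**Figure D1:**
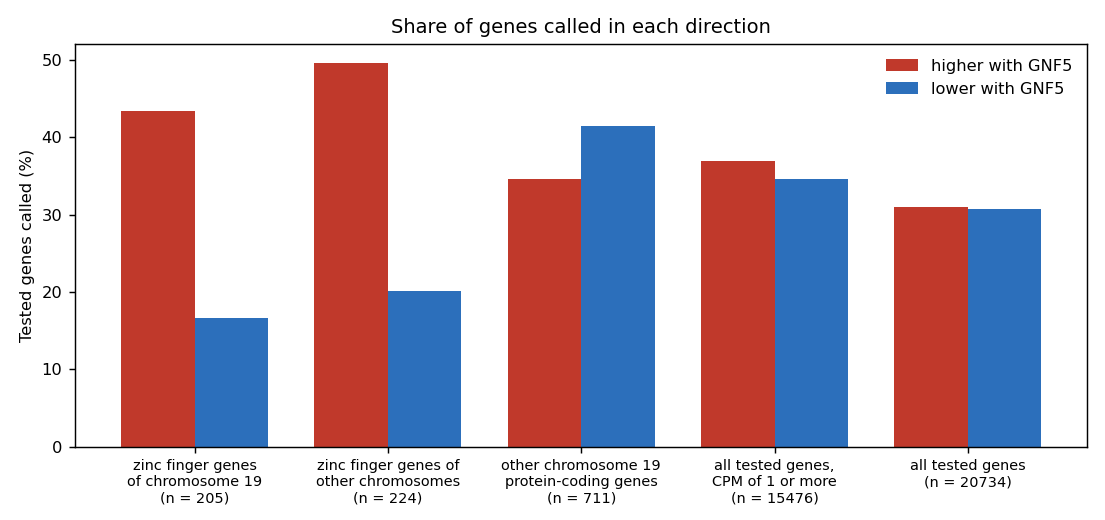
Bars give the percentage of tested genes called higher (red) and lower (blue) with GNF5 in 5 sets of genes, with the number tested under each. In both zinc finger sets the bar for higher is taller, 43.4% against 16.6% on chromosome 19 and 49.6% against 20.1% elsewhere, while it is the shorter in the other protein-coding genes of chromosome 19, at 34.6% against 41.5%.

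Position along the chromosome was described by blocks, which are runs of zinc finger genes with no gap over 1 Mb between neighbours, numbered from the start of the chromosome in GRCh38. There were 16 blocks, 9 of them with at least 5 members, and those 9 held 196 members. The blocks differed in how their members were split. In 8 of the 9, more members were higher than lower, and block 15 was the exception. Counts per block are descriptions, since members of a block are neither replicates nor independent in sequence.

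**Figure D2:**
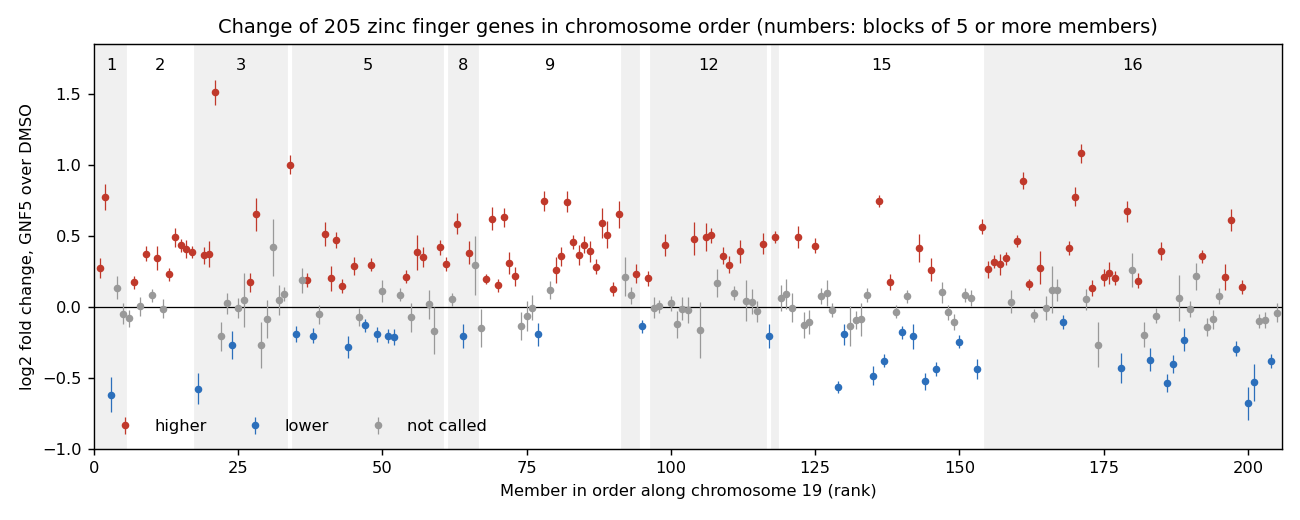
Each point is 1 of the 205 members, in order along chromosome 19, with its log2 fold change for GNF5 over DMSO and the standard error as a bar. Shading changes at each block, numbers name the blocks of 5 or more members, and colour gives the call. In block 9, 20 of 25 members lie above 0, block 2 has no called member below 0, and block 15 has called members on both sides.

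Among the blocks of at least 5 members, block 9 held the largest share that rose. It lies at chr19:36182276-37817300 and holds 25 members, of which 19 were higher, 1 was lower and 5 were not called, with a median log2 fold change of 0.31. With 1 library left out at a time, 16 to 19 were higher and 0 or 1 lower. The higher calls of ZNF607 and ZNF585A were lost under 8 and 4 of the 12 alternative settings. Those of ZNF260 and ZNF567 were lost under 1 each. No protein-coding gene of another kind at 1 CPM or more lies inside the bounds of block 9. Its members summed to 612.1 ± 23.2 CPM with GNF5 and 504.4 ± 11.7 CPM with DMSO (SD, n = 3 each), a ratio of 1.21. The 5 members not called were ZNF565, ZNF850, ZNF790, ZNF345 and ZNF420, with log2 fold changes of -0.15 to 0.12.

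ZNF568 changed most in block 9. In mouse, its counterpart Zfp568 is a KRAB zinc finger repressor of a placental Igf2 transcript. ZNF568 (ENSG00000198453, chr19:36916329-36998700, plus strand) had 17.6, 16.3 and 17.9 CPM with GNF5 and 10.3, 10.7 and 10.1 CPM with DMSO. Every GNF5 library lay above every DMSO library, and the log2 fold change was 0.74 ± 0.069 (SE, adjusted p 2.42e-10 in edgeR). ZNF383 had 18.9, 16.2 and 16.6 CPM with GNF5 and 11.0, 9.82 and 10.1 CPM with DMSO, again without overlap, and rose by 0.74 ± 0.075 on the log2 scale.

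ZNF568 starts 38 bases from ZNF829, which runs the other way. It was 1 of 3 pairs of members on opposite strands with starts within 1 kb of each other, all in block 9. In the other pairs the 5′ ends overlap. ZNF585B and ZNF383, with starts 227 bases apart, were both called higher (0.36 and 0.74 on the log2 scale), and ZNF790 and ZNF345, 426 bases apart, were not called (-0.07 and -0.01). ZNF829 (ENSG00000185869, chr19:36888124-36916291, minus strand) had 9.14, 8.58 and 9.33 CPM with GNF5 and 10.6, 10.8 and 9.63 CPM with DMSO. It was the 1 lower member of block 9, with a log2 fold change of -0.19 ± 0.080 (SE, adjusted p 0.0367 in edgeR), the opposite sign to its neighbour. That call was lost under 7 of 12 alternative settings, with adjusted p up to 0.137, among them each of 4 fits that left out 1 library (GNF5 replicate 1 or 2, DMSO replicate 1 or 2). The RefSeq promoter window of ZNF568, 250 bases before to 50 after its start, spans the interval between both genes. It is shown for that reason, on the plus strand at chr19:36916082-36916381 of GRCh38.p14, and it holds none of the 6 motifs searched below, so no letter is in capitals.
ZNF568 promoter: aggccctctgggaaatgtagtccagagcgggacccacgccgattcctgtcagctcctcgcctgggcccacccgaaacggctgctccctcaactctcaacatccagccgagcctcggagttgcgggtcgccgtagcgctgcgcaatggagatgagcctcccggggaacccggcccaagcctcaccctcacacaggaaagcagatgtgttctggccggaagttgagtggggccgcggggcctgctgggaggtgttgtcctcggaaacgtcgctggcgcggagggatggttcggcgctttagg

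Near the start of block 9 lies ZNF146, whose protein consists almost only of fingers, without a match to the KRAB box. It had the highest level per kilobase of all members, 46.6 CPM per kb with GNF5 and 40.7 CPM per kb with DMSO. Its libraries read 198.1, 188.9 and 192.5 CPM with GNF5 and 162.9, 173.4 and 169.9 CPM with DMSO, and it rose by 0.20 ± 0.034 on the log2 scale (SE, adjusted p 1.57e-05 in edgeR). ZNF260, also without such a match and known in the rat heart as a transcription factor, had 51.8 ± 2.53 CPM with GNF5 and 46.7 ± 1.57 CPM with DMSO (SD, n = 3 each). Its rise of 0.15 ± 0.046 was called at an adjusted p of 0.00519 in edgeR, and at 0.0508 without DMSO replicate 3. ZNF420, known as a KRAB repressor that restrains p53, had 18.3 ± 0.723 CPM with GNF5 and 16.9 ± 0.328 CPM with DMSO and was not called (log2 fold change 0.12, adjusted p 0.0974 in edgeR).

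**Figure D3:**
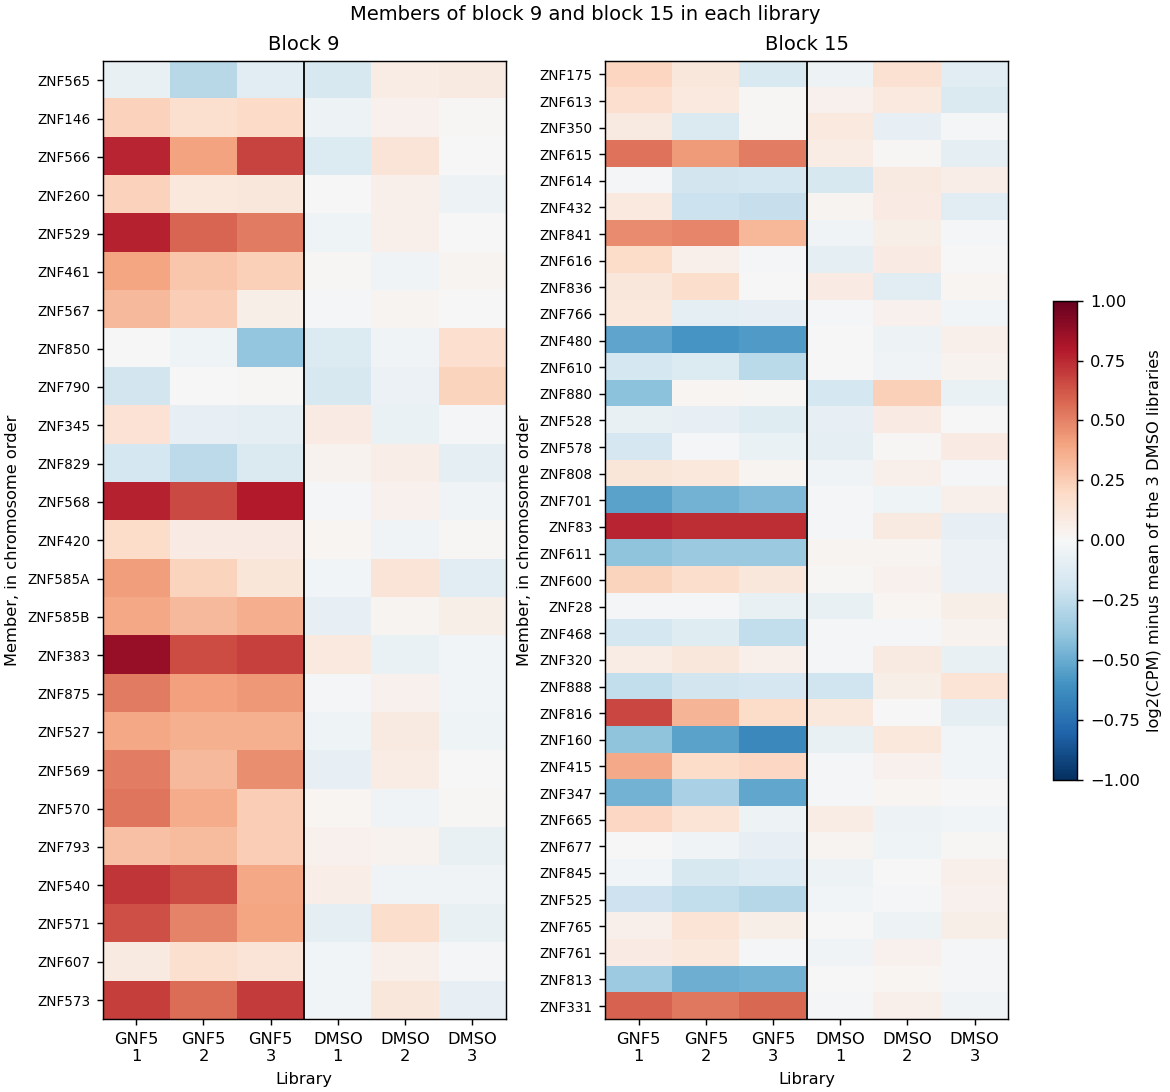
Each row is a member of block 9 (left) or block 15 (right) in chromosome order and each column a library, GNF5 left of DMSO. Colour gives log2(CPM) minus the mean of the 3 DMSO libraries. In block 9 most rows are red in all 3 GNF5 libraries, with 19 of 25 called higher, while block 15 mixes 7 higher and 10 lower rows.

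Block 15 split the other way. It holds 36 members at chr19:51571283-53580269, of which 7 were higher, 10 were lower and 19 were not called, with a median log2 fold change of -0.03. With 1 library left out at a time, 6 to 8 were higher and 8 to 11 lower. The lower calls of ZNF888 and ZNF610 were lost under 6 and 2 of the 12 alternative settings. The higher calls of ZNF600 and ZNF415 were lost under 1 each. The summed level was 848.9 ± 24.95 CPM with GNF5 and 851.5 ± 14.2 CPM with DMSO (SD, n = 3 each), a ratio of 0.997. Of the 10 called members with the largest falls, 5 lie here: ZNF480, ZNF160, ZNF701, ZNF813 and ZNF347.

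ZNF480 (ENSG00000198464, chr19:52297169-52325922) had 44.3, 42.5 and 43.1 CPM with GNF5 and 63.9, 61.8 and 66.2 CPM with DMSO. The groups stood well apart, and it fell by 0.56 ± 0.043 on the log2 scale (SE, adjusted p 3.93e-12 in edgeR). ZNF160, described as a repressor of the receptor gene TLR4, had 24.1, 22.0 and 20.5 CPM with GNF5 and 30.3, 34.4 and 31.3 CPM with DMSO, and it fell by 0.52 ± 0.060. ZNF611, known to bind SVA elements, a young family of composite retrotransposons, had 34.5, 35.3 and 35.3 CPM with GNF5 and 46.5, 46.5 and 43.8 CPM with DMSO. Its fall was 0.38 ± 0.045 on the log2 scale, without overlap.

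In the middle of these, ZNF83 moved the opposite way. ZNF83 (ENSG00000167766, chr19:52594060-52690496, minus strand) had 98.8, 97.6 and 97.6 CPM with GNF5 and 58.0, 62.0 and 55.3 CPM with DMSO. It is the only member of block 15 without a match to the KRAB box, it rose by 0.75 ± 0.041 on the log2 scale (SE), and its adjusted p of 3.34e-15 in edgeR was the lowest of the named members. ZNF701, which lies next to it, had 12.4, 13.0 and 13.2 CPM with GNF5 and 17.9, 17.5 and 18.6 CPM with DMSO, a fall of 0.48 ± 0.065. At the far end of the block, ZNF331, an imprinted gene of KRAB type, had 26.9 ± 0.604 CPM with GNF5 and 18.2 ± 0.532 CPM with DMSO (SD, n = 3 each) and rose by 0.56 ± 0.054.

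In block 2, at chr19:7069703-9793180, 8 of 12 members were called higher, 4 were not called and none was called lower. The median log2 fold change of block 2 was 0.29. The 26 protein-coding genes of other kinds inside its bounds, at 1 CPM or more, included 10 higher and 7 lower, with a median of 0.05. The summed level of the members was 460.5 ± 5.37 CPM with GNF5 and 384.2 ± 5.11 CPM with DMSO (SD, n = 3 each), a ratio of 1.20. ZNF121 had 103.4, 107.4 and 108.8 CPM with GNF5 and 72.6, 85.7 and 78.5 CPM with DMSO. ZNF426, which changed most in this block, had 18.7, 18.4 and 17.4 CPM with GNF5 and 13.0, 12.6 and 13.2 CPM with DMSO, and rose by 0.49 ± 0.065 on the log2 scale. In both genes every GNF5 library was above every DMSO library.

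Block 2 was also where one promoter motif was concentrated. The palindrome TGACGTCA, the full cyclic AMP response element, stood in 7 of the 182 members with a RefSeq promoter window (3.85%), beside 3.18% of tested genes with a window and 1.98% of all windows, and 5 of the 7 were among the 11 block 2 members with a window. These 5, ZNF266, ZNF426, ZNF121, ZNF561 and ZNF562, are consecutive members, all run on the minus strand and all were called higher, with log2 fold changes of 0.23, 0.49, 0.43, 0.40 and 0.39. The other 2, ZNF543 and ZNF547 in block 16, were not called (0.05 and -0.27). The match is a description, and whether any factor binds there was not tested. The windows below were chosen after these values were seen; each gives the palindrome in capitals with 30 bases on either side, read along the gene, from RefSeq on GRCh38.p14. The block 2 windows lie at chr19:9435553-9435620, chr19:9538629-9538696, chr19:9584517-9584584, chr19:9621218-9621285 and chr19:9675070-9675137, and the block 16 windows at chr19:57320448-57320515 and chr19:57363468-57363535.
ZNF266: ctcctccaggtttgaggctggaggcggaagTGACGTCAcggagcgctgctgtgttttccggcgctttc
ZNF426: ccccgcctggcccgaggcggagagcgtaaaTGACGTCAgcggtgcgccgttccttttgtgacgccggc
ZNF121: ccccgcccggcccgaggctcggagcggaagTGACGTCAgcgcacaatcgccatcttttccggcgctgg
ZNF561: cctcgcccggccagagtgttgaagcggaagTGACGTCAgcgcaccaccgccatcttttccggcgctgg
ZNF562: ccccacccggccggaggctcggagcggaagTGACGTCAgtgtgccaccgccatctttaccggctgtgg
ZNF543: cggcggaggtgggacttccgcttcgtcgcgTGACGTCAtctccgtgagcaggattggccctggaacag
ZNF547: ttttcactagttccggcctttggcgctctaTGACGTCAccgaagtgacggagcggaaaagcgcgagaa

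The 5 windows of block 2 resembled each other beyond the palindrome. Of 68 aligned bases, 26 were the same in all 5, 18 of them outside the palindrome, and the identity between pairs ran from 51.5% to 88.2%. These are neighbouring genes of related sequence, so they are not independent cases of the motif. ZNF266 had 54.0 ± 3.04 CPM with GNF5 and 46.1 ± 1.21 CPM with DMSO, ZNF561 had 19.9 ± 1.16 CPM with GNF5 and 15.1 ± 0.175 CPM with DMSO, and ZNF562 had 57.8 ± 1.81 CPM with GNF5 and 44.3 ± 0.364 CPM with DMSO (SD, n = 3 each).

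CCAAT, the box bound by NF-Y, was found in 52.2% of the members' windows, beside 36.5% of tested genes' windows and 35.7% of all windows, searched on both strands. Its share followed the blocks: 100% of the windows of block 1 and block 5, 87.5% in block 3, 63.0% in block 16, 9 of 30 in block 15, 6 of 24 in block 9 and 9.09% in block 2. It was present in 47.6% of the members called higher, 57.1% of those called lower and 55.6% of those not called. The E-box CACGTG stood in 4.40% of members' windows (tested genes 9.76%, all windows 7.43%), TTTGGCGC, an E2F site, in 3.85% (0.986% and 0.659%), and the NRF1 palindrome in 2.20% (2.15% and 1.36%). TGATGNAA, the element bound by ATF4 with a C/EBP partner, was in 2 members' windows (1.10%, beside 1.80% of tested genes and 3.67% of all windows), those of ZNF460 and ZNF486, and both genes were called higher.

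The largest rise among the 205 members was that of ZNF441, a KRAB gene of block 3. ZNF441 (ENSG00000197044, chr19:11767000-11784078, plus strand) had 35.4, 28.5 and 29.5 CPM with GNF5 and 10.9, 12.2 and 9.70 CPM with DMSO. The lowest GNF5 library stood well over the highest DMSO library, and the change was 2.85-fold (log2 fold change 1.51 ± 0.085, SE, adjusted p 9.14e-12 in edgeR). It stood apart from the rest of its block, in which 5 of 16 members were higher and 2 lower with a median of 0.05. With 1 library left out at a time, 4 to 6 were higher and 1 or 2 lower. The lower call of ZNF439 was lost without GNF5 replicate 2, GNF5 replicate 3 or DMSO replicate 2, with adjusted p in edgeR up to 0.0887. The higher call of ZNF136 was lost under 6 of the 12 alternative settings. ZNF491, ZNF440 and ZNF439, the next members along the chromosome, had log2 fold changes of -0.21, 0.02 and -0.27. Its promoter window, shown because of that difference, lies at chr19:11766750-11767049, and the capitals mark CCAAT, the only motif of the list found in it.
ZNF441 promoter: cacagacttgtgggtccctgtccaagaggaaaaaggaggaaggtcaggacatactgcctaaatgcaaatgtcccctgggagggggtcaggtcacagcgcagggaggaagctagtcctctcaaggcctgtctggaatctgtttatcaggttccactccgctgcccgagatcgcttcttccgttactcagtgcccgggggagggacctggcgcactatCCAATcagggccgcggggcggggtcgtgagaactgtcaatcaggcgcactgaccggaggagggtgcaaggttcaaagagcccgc

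ZNF460 in block 16 was the next. ZNF460 (ENSG00000197714, chr19:57280051-57294069, plus strand) had 22.1, 22.4 and 22.4 CPM with GNF5 and 9.85, 11.1 and 10.6 CPM with DMSO. The GNF5 libraries were almost alike (SD 0.158 CPM) and all lay above the DMSO libraries. The change was 2.11-fold, with a log2 fold change of 1.08 ± 0.0655 (SE, adjusted p 2.28e-14 in edgeR). Its window, at chr19:57279732-57280031, holds 2 CCAAT boxes, a CACGTG and, written here as its complement TTACATCA, the TGATGNAA element.
ZNF460 promoter: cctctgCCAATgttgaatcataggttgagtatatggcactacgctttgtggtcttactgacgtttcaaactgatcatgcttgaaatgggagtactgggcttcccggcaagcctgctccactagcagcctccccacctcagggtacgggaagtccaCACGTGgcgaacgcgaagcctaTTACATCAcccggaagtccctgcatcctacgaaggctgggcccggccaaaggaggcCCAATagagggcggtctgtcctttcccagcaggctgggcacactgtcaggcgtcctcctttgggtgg

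The third was ZNF333, which makes up block 4 alone and lies at chr19:14689801-14733746. It had 24.1, 22.1 and 21.9 CPM with GNF5 and 11.3, 10.8 and 11.99 CPM with DMSO, without overlap, and rose by 1.00 ± 0.066 on the log2 scale. After it came ZNF581 (0.89), ZNF805 (0.78), ZNF555 (0.77), ZNF83, ZNF568, ZNF383 and ZNF419 (0.67). Part of the exons of ZNF581 (24.9%) is shared on the same strand with ZNF580, and 13.5% of those of ZNF805 with an unnamed gene, and reads there are not counted for either gene. ZNF497 fell most, with 2.96, 2.91 and 3.07 CPM with GNF5 and 4.80, 4.96 and 4.58 CPM with DMSO and a fall of 0.68 ± 0.114 on the log2 scale, and 24.0% of its exon bases are shared. ZNF556 (-0.62), ZNF653 (-0.58, 14.6% shared), ZNF480, ZNF551 (-0.53), ZNF837 (-0.53), ZNF160, ZNF701, ZNF813 (-0.44) and ZNF347 (-0.44) followed.

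**Figure D4:**
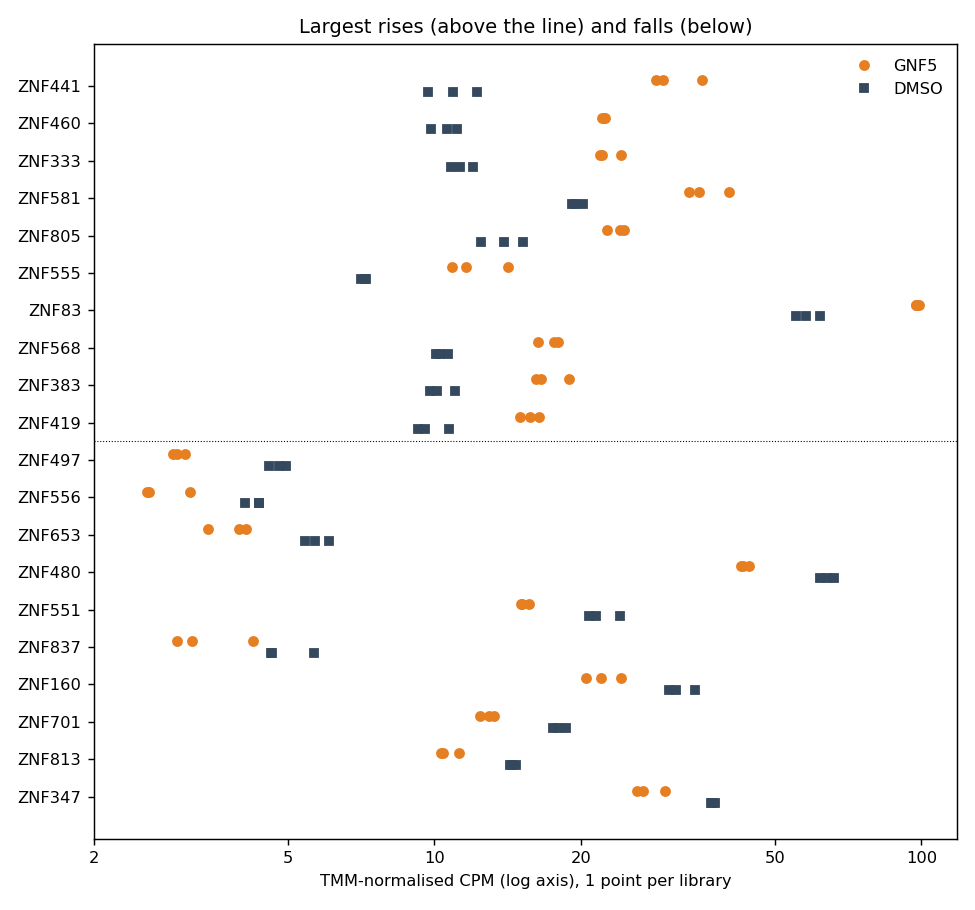
Each row is 1 of the 205 members, with its TMM-normalised CPM on a log axis, 1 point per library, GNF5 as orange circles above DMSO as dark squares. Above the dotted line are the members' 10 largest rises, from ZNF441 at 2.85-fold, and below it the 10 largest falls, and in none of the 20 do the groups overlap, as the rule for naming them required.

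Block 16 at the end of the long arm is the largest, with 51 members at chr19:55476617-58481230, of which 22 were higher, 10 lower and 19 not called, with a median of 0.12. With 1 library left out at a time, 18 to 21 were higher and 8 to 10 lower. Splitting blocks at gaps over 0.5 Mb divides block 16. The first run, 14 members at 55.5 to 56.7 Mb, held 8 higher and 1 lower with a median of 0.21. Its lower call, ZNF71, and the higher call of ZNF582 were each lost under 9 of the 12 alternative settings. In 9 members of this run no match to the KRAB box was found, and 7 of them were higher. The second, 37 members at 57.2 to 58.5 Mb, held 14 higher and 9 lower with a median of 0.05. In the first run, ZNF580 had 64.9, 63.9 and 66.4 CPM with GNF5 and 48.6, 44.8 and 48.2 CPM with DMSO, and rose by 0.46 ± 0.043. ZNF787 had 109 ± 4.45 CPM with GNF5 and 97.7 ± 3.96 CPM with DMSO (SD, n = 3 each) and rose by 0.16 ± 0.039.

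Block 5 at chr19:19668796-24129968, a cluster that expanded in primates, held 26 members, 11 higher and 7 lower, with a median of 0.10 and no change beyond 0.51 in size. ZNF682 changed most there, with 14.2 ± 1.52 CPM with GNF5 and 9.97 ± 0.767 CPM with DMSO. Block 12 at chr19:43525497-45076587 held 20 members, 8 higher and none lower, with a median of 0.07, beside 10 higher and 5 lower of 18 other coding genes in it with a median of 0.21. Block 1 and block 8 held 5 members each, and in each 2 were higher and 1 lower. The lower member of block 8, ZNF599, lost its call under 8 of the 12 alternatives, with adjusted p up to 0.147, also without any 1 library other than GNF5 replicate 2.

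**Figure D5:**
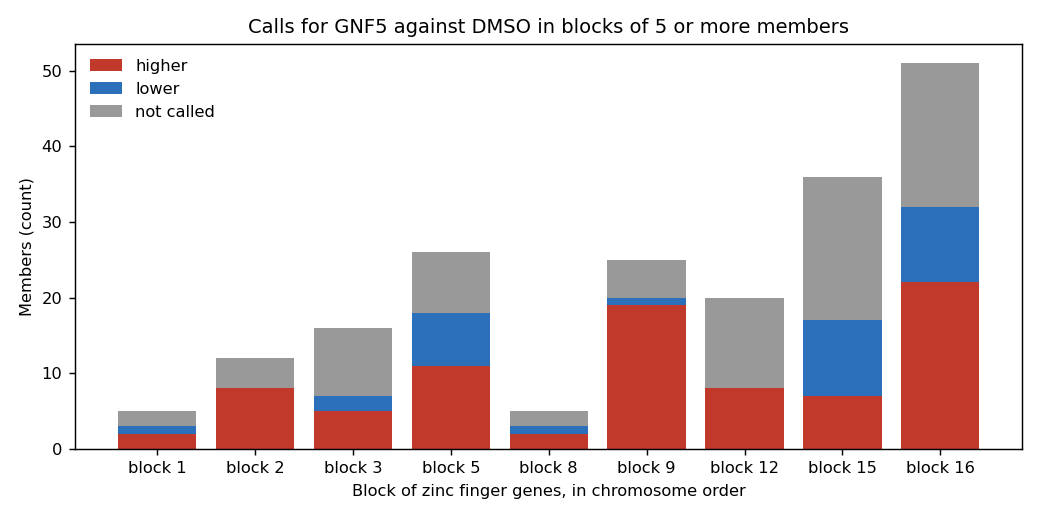
Bars count the members of each block of 5 or more, split into higher (red), lower (blue) and not called (grey) with GNF5. Block 9 is red for 19 of 25 members, blocks 2 and 12 hold no blue, and in block 15 blue (10) exceeds red (7).

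Direction was also compared between neighbouring members. Of 190 pairs of adjacent members in 1 block, 106 had log2 fold changes of the same sign (55.8%), and of 70 pairs with both called, 44 moved the same way (62.9%). For 710 adjacent pairs of other protein-coding genes on chromosome 19 the same sign was seen in 356 (50.1%), and 209 of 419 called pairs moved the same way (49.9%). The members themselves were split into 129 positive and 76 negative log2 fold changes, and 89 were called higher and 34 lower. The other genes were split more evenly, with 246 called higher and 295 lower. An uneven split alone makes pairs of like direction more frequent, and the difference between these shares was not tested. Pearson's r between neighbours was 0.06 for members and 0.11 for the other genes, over pairs that share genes and libraries.

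Among members with a described role in holding down transposable elements, the changes were mixed. ZNF91, which represses SVA elements and has the most fingers of all members (32), had 4.67, 4.42 and 3.89 CPM with GNF5 and 3.40, 2.86 and 3.71 CPM with DMSO. It rose by 0.38 ± 0.124 on the log2 scale (SE, adjusted p 0.00887 in edgeR), but without DMSO replicate 2 the adjusted p was 0.0788. ZNF93, which represses LINE elements, had 15.7 ± 0.541 CPM with GNF5 and 16.3 ± 0.590 CPM with DMSO and was not called. ZNF85, a KRAB gene of the same block, had 21.3 ± 1.91 CPM with GNF5 and 17.5 ± 0.380 CPM with DMSO (SD, n = 3 each) and rose by 0.29 ± 0.064.

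ZNF274, which brings SETDB1 to the 3′ ends of zinc finger genes themselves, rose. It had 13.8, 12.2 and 12.1 CPM with GNF5 and 8.27, 8.20 and 8.55 CPM with DMSO, with no overlap and a log2 fold change of 0.61 ± 0.078 (SE, adjusted p 1.08e-07 in edgeR). ZNF224, a KRAB repressor first described at the aldolase A gene, had 33.5, 34.6 and 34.0 CPM with GNF5 and 23.3, 25.3 and 23.3 CPM with DMSO and rose by 0.50 ± 0.051, the largest change in block 12. ZNF675, an inhibitor of TRAF6 signalling, had 18.6 ± 0.825 CPM with GNF5 and 14.6 ± 1.23 CPM with DMSO, and ZNF43 had 65.0 ± 4.88 CPM with GNF5 and 56.2 ± 1.54 CPM with DMSO (SD, n = 3 each). Both were called higher. ZNF304, a KRAB gene of block 16, had 22.8 ± 0.712 CPM with GNF5 and 20.7 ± 0.738 CPM with DMSO, and its call (log2 fold change 0.13, adjusted p 0.038 in edgeR) was lost under 8 of 12 alternatives, 4 of them fits without 1 library (GNF5 replicate 1 or 2, DMSO replicate 1 or 2), with adjusted p up to 0.153.

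Members without a match to the KRAB box include several with other roles. The match asked for 7 of 9 fixed letters in the longest reading frame, so a missing match does not show that the box is absent. ZNF473, a component of the machinery that trims the 3′ ends of histone mRNAs, lies alone in block 14. It had 73.5, 68.2 and 68.3 CPM with GNF5 and 48.5, 51.6 and 49.6 CPM with DMSO, and rose by 0.49 ± 0.043 on the log2 scale (SE, adjusted p 8.41e-11 in edgeR). It is named because it is the only member of its block. ZNF296, which in mouse takes part in pluripotency networks, had 16.4 ± 1.35 CPM with GNF5 and 12.1 ± 0.860 CPM with DMSO and rose by 0.44 ± 0.074, and ZNF507 had 61.5 ± 4.20 CPM with GNF5 and 49.9 ± 1.91 CPM with DMSO (SD, n = 3 each) and rose by 0.30 ± 0.048. ZNF428, among the 5 members of the highest level per kilobase, had 51.4 ± 1.27 CPM with GNF5 and 51.3 ± 2.48 CPM with DMSO and was not called. ZNF358, another of these 5, had 49.2 ± 0.775 CPM with GNF5 and 43.7 ± 2.39 CPM with DMSO and rose by 0.17 ± 0.046, with 20.1% of its exon bases shared with an unnamed gene.

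The structure of the proteins separated the members little. Of the 174 with a KRAB box, 72 were higher and 29 lower, with a median of 0.09, and of the 31 without a match 17 were higher and 5 lower, with a median of 0.16. The number of fingers ran from 0 (in the longest annotated reading frame of ZNF738) to 32, with a median of 12. The 51 members with 16 or more fingers included 24 higher and 5 lower, with a median of 0.17, and the 53 with 0 to 9 fingers 22 higher and 11 lower, with a median of 0.05. Over the 205 members, the log2 fold change had a Pearson's r of 0.06 with finger number, 0.15 with exon length and 0.08 with mean CPM, as descriptions over genes of the same 6 libraries.

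Sequence shared with other genes limits some of these counts. In 29 members over 10% of exon bases lie in another gene on the same strand, and in 13 members over 10% of the 50-base words of the transcript recur in another gene, so that reads from them can be left out of the count. The 167 members with neither included 77 higher and 27 lower, with a median of 0.12. ZNF564, with 69.9% of its exon bases shared, had 1.43 ± 0.180 CPM with GNF5 and 1.08 ± 0.124 CPM with DMSO (SD, n = 3 each) and was not called. It and ZNF792 are the members nearest above the threshold, at 1.25 and 1.07 CPM over the 6 libraries, and ZNF442 and ZNF433 the nearest below, at 0.880 and 0.741 CPM.

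Genes listed as cofactors of KRAB zinc finger proteins were lower more often than higher. Of 42 cofactor genes listed, 41 were tested, and 9 were higher, 23 lower and 9 not called, with a median log2 fold change of -0.11. The share called was 78.0%, beside 61.6% of all tested genes and 71.5% of those at 1 CPM or more. The median level of the cofactors was 125.6 CPM, beside 25.3 CPM for the tested genes at 1 CPM or more. TRIM28, the corepressor bound by the KRAB box, lies just beyond block 16 at chr19:58544064-58550722 and had 688.9, 687.2 and 682.8 CPM with GNF5 and 829.3, 783.7 and 802.3 CPM with DMSO. It fell by 0.23 ± 0.032 on the log2 scale (SE, adjusted p 3.99e-07 in edgeR). SETDB1, the methyltransferase it recruits, went the other way, with 77.3, 69.5 and 71.8 CPM with GNF5 and 54.0, 55.5 and 52.4 CPM with DMSO, and rose by 0.43 ± 0.044.

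Of the further parts of the complex, the HP1 gamma gene CBX3 had 314.6 ± 7.20 CPM with GNF5 and 408.2 ± 2.63 CPM with DMSO and fell by 0.38 ± 0.032. Of 2 deacetylase genes listed, HDAC1 had 59.5 ± 2.34 CPM with GNF5 and 87.1 ± 2.34 CPM with DMSO and fell by 0.55 ± 0.041. The other, HDAC2, had 194.5 ± 11.2 CPM with GNF5 and 186.5 ± 3.30 CPM with DMSO and was not called (log2 fold change 0.06). The histone chaperone gene RBBP7 fell by 0.38 ± 0.032. UHRF1, which guides maintenance methylation of DNA and is high in cycling cells, had 81.1 ± 8.34 CPM with GNF5 and 160.4 ± 3.84 CPM with DMSO (SD, n = 3 each) and fell by 0.99 ± 0.056, the largest change of the list. The NuRD genes GATAD2B and MTA1 rose by 0.42 ± 0.038 and 0.29 ± 0.032. ATF7IP2 had no count in any library.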

How the data were processed

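RNA of NCI-H69 cells was sequenced in 3 GNF5 and 3 DMSO libraries, and groups and replicate numbers were taken from the labels. Per the file headers, the deposited files hold counts per gene without normalisation, made by the authors with featureCounts 1.6.1 (reverse-stranded, exons of the Ensembl 101 annotation of GRCh38), so reads that several genes or places share were left out by default. The submitters' processing notes name GRCh37 and the tools HTSeq, STAR, Trim Galore and DESeq2, and the headers were followed where these differ. How the libraries were selected, and the build of the alignment, are not given in the sources used here. Symbols were found for 60401 of 60671 gene IDs. Pairs of replicates had a chi-square of 3.18 to 8.76 per degree of freedom, above sampling noise, so each library counted as 1 sample. A count of 3 corresponds to 0.0496 to 0.0647 CPM, which covers counting error only.

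The test was edgeR 4.0.16's quasi-likelihood test (robust, TMM factors, default expression filter, R 4.3.3) over 20734 genes with Benjamini-Hochberg adjustment. A standard error is the log2 fold change over the square root of F. Levels are TMM-normalised CPM. After the fits, simulated counts with known changes, with gene means taken from these libraries, were run through the same test. Fingers and KRAB boxes were found in the longest reading frame of GENCODE 29, since no RefSeq protein table was given, and a KRAB box needed 7 of 9 fixed letters. Exon overlap came from the exon coordinates deposited with the counts. The 50-base words came from GENCODE 29 transcripts. They were compared with genes of chromosome 19 and with genes elsewhere whose symbol begins with Z, HKR or PEG3. Promoter windows are from RefSeq on GRCh38.p14 and matched 182 of 205 members.

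Members and gene lists were chosen with earlier results of these data known, so no list was tested as a set. Genes named were the 10 largest called changes in each direction without overlap between groups, the 5 highest per kilobase, 20 with a described role, the largest change in each block of at least 5, those next to the threshold, and the called cofactors with the 4 lowest p-values in each direction plus TRIM28, SETDB1 and ZNF274. Others were named after their values were seen. Same-numbered GNF5 and DMSO libraries did not deviate together, so the numbers were not used as pairs. The alternatives were DESeq2 1.42.0 size factors and Wald test, upper-quartile factors, no and a stricter filter, the replicate number as a block, each library left out, other CPM thresholds and other block gaps.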

Additional observations from a re-analysis of the deposited data

How the results depend on the processing

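The counts of members called in each direction, their median and the counts of cofactors and of other zinc finger genes kept their direction and stayed within 1.5 times of the reported values under every alternative run. Leaving out 1 library at a time gave 78 to 89 members called higher and 26 to 32 called lower. Upper-quartile factors gave 83 and 39, the DESeq2 Wald test 82 and 29, and the stricter filter 86 and 37. The median log2 fold change of the members ran from 0.07 to 0.14. Thresholds of 0.5 and 2 CPM gave 92 and 89 members called higher, with 34 lower in each. Of the 123 called members, 97 (73 higher, 24 lower) kept their call under all 12 alternative fits, 26 lost it under at least 1, and 0 reversed. ZNF90, ZNF329, ZNF582 and ZNF71, which enter the counts of blocks 5 and 16, lost theirs most often, under 11, 10, 9 and 9 fits. ZNF564, not called, had an adjusted p of 0.0396 in edgeR without GNF5 replicate 2.

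Uncalled genes near 0 changed sign. ZNF428 was at -0.00181 with DESeq2 size factors, -0.0218 with upper-quartile factors, -0.00118 in the DESeq2 Wald test, -0.00758 under the stricter filter and -0.0273 to 0.0383 with 1 library left out. ZNF649, which lies below the threshold at 0.432 CPM, ran from -0.267 to 0.100 with 1 library left out. The cause was not tested.

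With the replicate number as a block, the number of all tested genes called was 12475, and 85 members were higher and 31 lower, and the median was 0.10. Deviations of same-numbered libraries had correlations of -0.0157, 0.0159 and 0.00082, and not every library correlated best with its own number. Among the named genes, ZNF304 (adjusted p 0.058 in edgeR) and ZNF829 (0.0556) lost their calls under the block. Depth limits the genes near the threshold, where the SE of the log2 fold change reached 0.207 (ZNF792).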

Other observations

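Below the threshold of 1 CPM lay 42 zinc finger genes of chromosome 19, of which 3 had no count in any library, among them ZNF536, a neural gene that makes up block 6 alone. Of the 13 that passed the expression filter, 4 were called higher in edgeR and 0 lower. These 13 passed because at least 1 group was high enough, so their split is a description. ZNF844 had 0.549 ± 0.0590 CPM with GNF5 and 0.0963 ± 0.0454 CPM with DMSO (SD, n = 3 each). It rose by 2.48 ± 0.418 on the log2 scale (SE), from 4, 9 and 4 counts in the DMSO libraries. Of its exon bases, 45.3% are shared with an unnamed gene. ZNF433 had 1.12 ± 0.364 CPM with GNF5 and 0.361 ± 0.0927 CPM with DMSO (SD, n = 3 each), a rise of 1.64 ± 0.290. ZNF442 had 1.15 ± 0.223 CPM with GNF5 and 0.616 ± 0.180 CPM with DMSO. These 3 lie in block 3, where ZNF441 is also found. ZNF382, described as a tumour suppressor that restrains NF-κB, is in block 9 and had 0.877 ± 0.214 CPM with GNF5 and 0.390 ± 0.0396 CPM with DMSO. ZNF844 was named after its values were seen.

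Of 16 zinc finger pseudogenes of chromosome 19, 7 were tested. ZNF56P was called higher, with 2.89 CPM with GNF5 and 1.75 CPM with DMSO. ZNF887P, with 2.96 CPM with GNF5 and 4.38 CPM with DMSO, and ZNF702P, with 4.77 CPM with GNF5 and 5.66 CPM with DMSO, were called lower, and the other 4 were not called.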
